A study of Mus musculus with 8 samples.

Results

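The genes described here are 30 genes of cholesterol and fatty acid synthesis, measured in whole kidneys of mouse embryos at embryonic day 16.5. They were chosen by name, as enzymes of the sterol pathway, regulators of the SREBP transcription factors, and lipogenic enzymes. Every probe whose accession maps to such a symbol was collected. All 30 had a probe that passed the filter on dim spots, among 13981 named genes tested. They fall into 7 enzymes of the mevalonate segment, 11 enzymes from squalene to cholesterol, 6 regulators and sterol carriers, and 6 lipogenic enzymes. The samples were kidney pairs of C57BL/6 embryos, 4 labelled as wildtype controls (WT) and 4 with a Dot1 knockout in nephron progenitors (KO), taken here as Dot1l, the histone H3 lysine 79 methyltransferase. The knockout was conditional, in the Six2-positive progenitors that build nephrons; the Cre line is not given in the sources used here. Only part of the cells in a KO kidney thus lack the gene. Each sample was labelled in red (Cy5) and hybridised with green (Cy3) RNA of the WT1 kidneys, so a value of 0 (log2 scale) means the same signal as in the WT1 kidneys.

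Cells make cholesterol from acetyl-CoA. The mevalonate segment builds isoprenoids up to farnesyl diphosphate, which is condensed to squalene and closed to a sterol ring that later enzymes trim to cholesterol. Fatty acids come from the same acetyl-CoA through citrate lyase, acetyl-CoA carboxylase and fatty acid synthase. Both branches are driven by SREBP transcription factors. When membrane sterol is low, the escort protein SCAP carries SREBP from the endoplasmic reticulum to the Golgi for cleavage; when sterol is high, INSIG proteins hold SCAP back. Enzymes of the sterol branch are known to be transcribed together, which makes them a readout of sterol demand in growing tissue.

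The arrays were not of equal quality. Background was high in red on WT1, where the median negative control read 1361 scanner units, and on KO1 with 478.2, while the remaining 6 arrays lay between 58 and 61. Green was high too, at 412 on WT1 and 111.5 on KO1, against 21 to 26 on the 6. The median correlation of green signals with the 6 was 0.56 for WT1 and 0.90 for KO1, against 0.996 to 0.997 among the 6. WT1 held WT1 RNA in both colours, so its ratios show how far probes departed from 0 on that array with no difference in RNA. They ran from -0.55 (Sqle) to 0.26 (Acat2) over the 30 genes, and may not stand for the other arrays. Ddx3y, a Y-linked gene, was high on WT2 (3.29) and on the 4 KO arrays (2.31 to 3.19) and between -0.11 and 0.08 on the other WT arrays. Y-linked signal was thus in all KO samples but in 1 of 4 WT samples, so sex is largely confounded with group, also for the X-linked members Nsdhl and Ebp, and its part in the differences was not tested. The Dot1l probe differed by 0.03 ± 0.08 (SE, n = 4 per group; limma adjusted p = 0.924), and its place relative to the deleted part was not analysed here, so it does not check the labels. All WT arrays lay in 1 row of the slide and all KO arrays in the other, so row and group cannot be told apart.

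None of the 30 genes passed the test between KO and WT kidneys (limma with Benjamini-Hochberg adjustment over all genes, threshold 0.05). Over all genes 296 passed, 2.12% of those tested, with 220 (1.57%) higher and 76 (0.544%) lower in KO. A block for the replicate number gave 556. At an unadjusted p under 0.05 there were 2 of the 30, Hsd17b7 and Acat2, against 14.5% of all genes. With the replicate block there were 7 of the 30, against 18.3% of all genes. In none of the 30 were the KO arrays all beyond the WT arrays, an arrangement that 9.28% of all genes showed. Every difference was smaller than 1.5-fold. The 95% confidence interval lay between -1 and 1 on the log2 scale, that is within 2-fold either way, in 29 of 30, Acat2 being the exception, and the median reach of the interval was 0.25 to each side. Of the differences, 22 of 30 (73.3%) were below 0, against 40.7% of all genes, with a median of -0.10 against 0.03. That count was 25 without WT1 and KO1, 20 without WT2 and 18 without KO3. With the red channel alone it turned to 10 of 30, where 27.8% of all genes were below 0, and without WT1 and KO1 in that channel it was 26, where 54.5% were. Leaving out 1 array changed the count over all genes by more than 1.5 times in 5 cases: omitting KO4 gave 83, WT4 gave 129, KO2 gave 141, WT2 gave 150 and WT1 gave 187. In each of these settings none of the 30 passed. In whole kidneys, fewer cells of a type and less RNA per cell cannot be told apart.

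**Figure D1:**
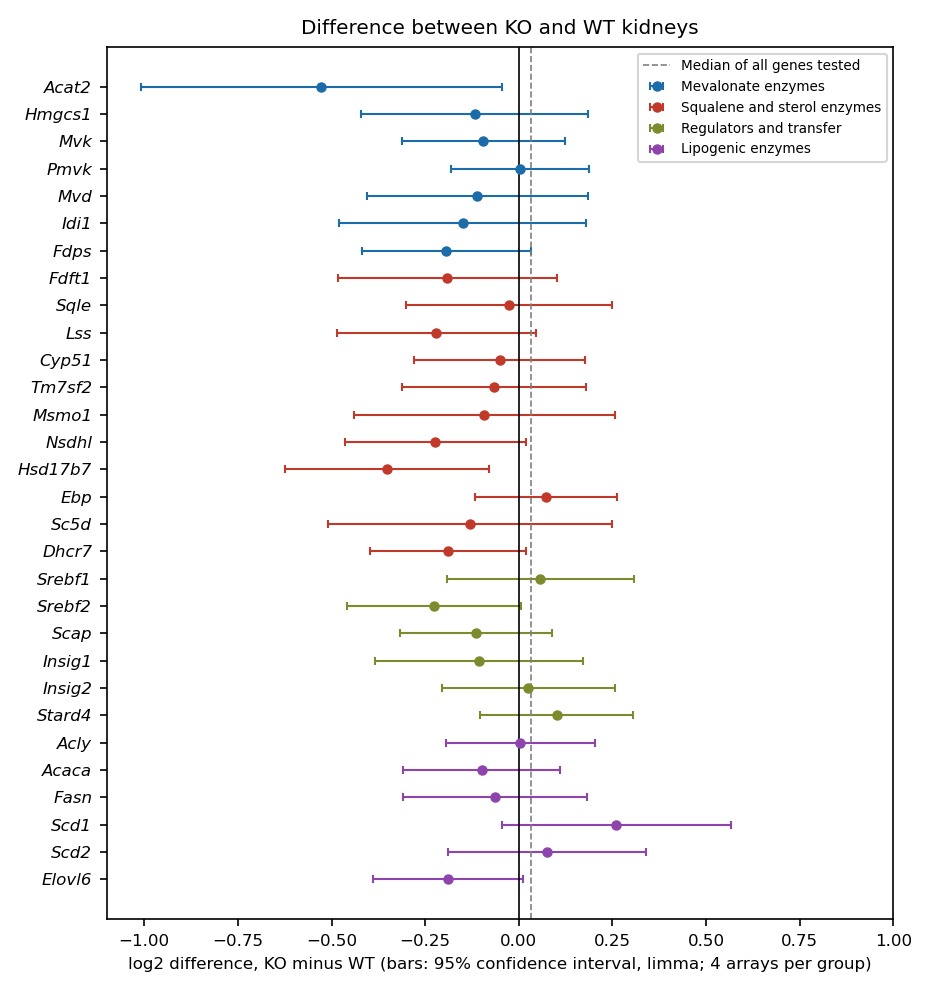
Log2 difference between KO and WT kidneys for the 30 genes (x axis; points are the difference of group means, bars the 95% confidence interval from limma, 4 arrays per group), coloured by role. Most points of the mevalonate and sterol enzymes lie left of 0, and only the bars of Acat2 and Hsd17b7 do not reach 0, neither of which passed after adjustment.

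In the mevalonate segment 6 of 7 differences were below 0, with a median of -0.12. Acat2, the cytosolic thiolase that joins acetyl-CoA units, had log2 ratios of 0.26, 1.44, 0.16 and 0.56 on WT1 to WT4. On KO1 to KO4 it had 0.09, 0.00, 0.27 and -0.05. WT2 stood far above all other arrays, and KO3 lay above WT1 and WT3. The difference was -0.53 ± 0.22 (SE; limma adjusted p = 0.291), and -0.25 without WT2. With WT2 as the only control it was -1.36 (adjusted p = 0.0161), the only setting in which any of the 30 passed. That fit has 1 control array, the one with the highest Acat2 value. Its spread comes from the KO arrays and from WT1, WT3 and WT4 as a separate group. The size of the Acat2 difference thus depended much on WT2. Without WT2 it was still below 0, at -0.25 ± 0.12 (limma adjusted p = 0.431). Fdps, which makes farnesyl diphosphate, had -0.24, 0.01, -0.22 and -0.17 in WT and -0.19, -0.21, -0.49 and -0.51 in KO. Its lowest values were those of KO3 and KO4, while KO1 and KO2 lay among the WT arrays (difference -0.19 ± 0.10, adjusted p = 0.429). Idi1, the isomerase that supplies the starter unit for isoprenoid chains, had -0.50, -0.35, -0.28 and -0.09 in WT and -0.08, -0.31, -0.87 and -0.55 in KO. KO1 was here the highest of the 8 arrays and KO3 the lowest, so the group difference of -0.15 ± 0.15 (adjusted p = 0.728) was smaller than the spread among KO arrays (SD 0.34). Mvk, mevalonate kinase, had -0.30, -0.05, -0.24 and -0.36 in WT and -0.27, -0.16, -0.46 and -0.44 in KO (difference -0.10 ± 0.10, adjusted p = 0.737). KO3 and KO4 were again the lowest. Hmgcs1, the synthase that makes HMG-CoA, differed by -0.12, Mvd, the decarboxylase, by -0.11, and Pmvk, the next kinase, by 0.00.

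From squalene onwards 10 of 11 differences were below 0, with a median of -0.13. Hsd17b7, which reduces the keto group left by demethylation, had the smallest p of the 30 genes. Its log2 ratios were 0.04, -0.11, -0.52 and -0.07 on WT1 to WT4 and -0.51, -0.31, -0.54 and -0.71 on KO1 to KO4. WT3 was as low as the KO arrays, the other WT arrays were above all of them. The difference was -0.35 ± 0.13 (SE, 1.28-fold lower, limma adjusted p = 0.200), and -0.14 at a second probe. Nsdhl, the X-linked enzyme that acts just before it, had 0.13, 0.32, 0.04 and 0.27 in WT and 0.03, 0.14, -0.33 and 0.02 in KO. Its groups overlapped through KO2 only (difference -0.22 ± 0.11, adjusted p = 0.392). Lss, which closes the sterol ring, had 0.00, 0.24, -0.29 and -0.23 in WT and -0.17, -0.17, -0.43 and -0.39 in KO (difference -0.22 ± 0.12, adjusted p = 0.447). Dhcr7, the reductase of the last step to cholesterol, had 0.02, 0.08, -0.03 and 0.06 in WT and -0.09, 0.01, -0.39 and -0.16 in KO (difference -0.19 ± 0.10, adjusted p = 0.403). In both genes KO3 and KO4 were the lowest arrays. The others ranged from -0.19 for Fdft1, squalene synthase, to 0.07 for Ebp, the X-linked sterol isomerase. Between these lay Sc5d, Msmo1, Tm7sf2, Cyp51 and Sqle, the squalene epoxidase (-0.03).

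In many of these enzymes the KO arrays split into pairs. In 13 of the 18 sterol pathway enzymes both KO3 and KO4 lay below both KO1 and KO2, an arrangement noticed in these values and shown by 13.4% of all genes. KO3 or KO4 was the lowest of the 8 arrays in 14 of the 18, against 22.6% of all genes (KO3 in 9, against 17.3%, and KO4 in 5, against 5.31%). At the other end WT2, the only WT array with high Ddx3y, was the highest of the 8 in 10 of the 18, against 14.3%. The median of the 18 enzymes was -0.34 on KO3 and -0.31 on KO4, but -0.09 on KO1 and 0.03 on KO2. It was -0.10, 0.13, -0.12 and -0.06 on WT1 to WT4. The medians of KO1 and KO2 thus lay within the WT range and those of KO3 and KO4 below it. Msmo1, which removes methyl groups from the sterol ring, shows the split most plainly: -0.04 and -0.12 on KO1 and KO2, -0.79 and -0.72 on KO3 and KO4, and -0.46 to -0.17 in WT. Its group difference was only -0.09 ± 0.16 (adjusted p = 0.861). Sc5d, which sets the ring's double bond, had -0.09, 0.27, -0.36 and -0.58 in KO and -0.02, 0.30, -0.26 and -0.26 in WT. Within the red channel of the 6 arrays with low background the 18 enzymes had medians of 0.24, -0.05 and 0.07 on WT2 to WT4 and 0.10, -0.28 and -0.20 on KO2 to KO4, relative to each gene's mean. The green channel, with the same reference RNA throughout, stayed between -0.03 and 0.04. It had -0.02, -0.01 and -0.03 on WT2 to WT4 and 0.03, 0.01 and 0.04 on KO2 to KO4. Each of these KO arrays thus lay slightly above each WT array in green, which slightly lowers the KO ratios. The low values of KO3 and KO4 were thus mainly in the red channel, which held the sample. The regulators had the same arrangement of KO arrays in 3 of 6 and the lipogenic enzymes in 2 of 6, which makes 18 of all 30 genes, and whether the roles differ in this was not tested.

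**Figure D2:**
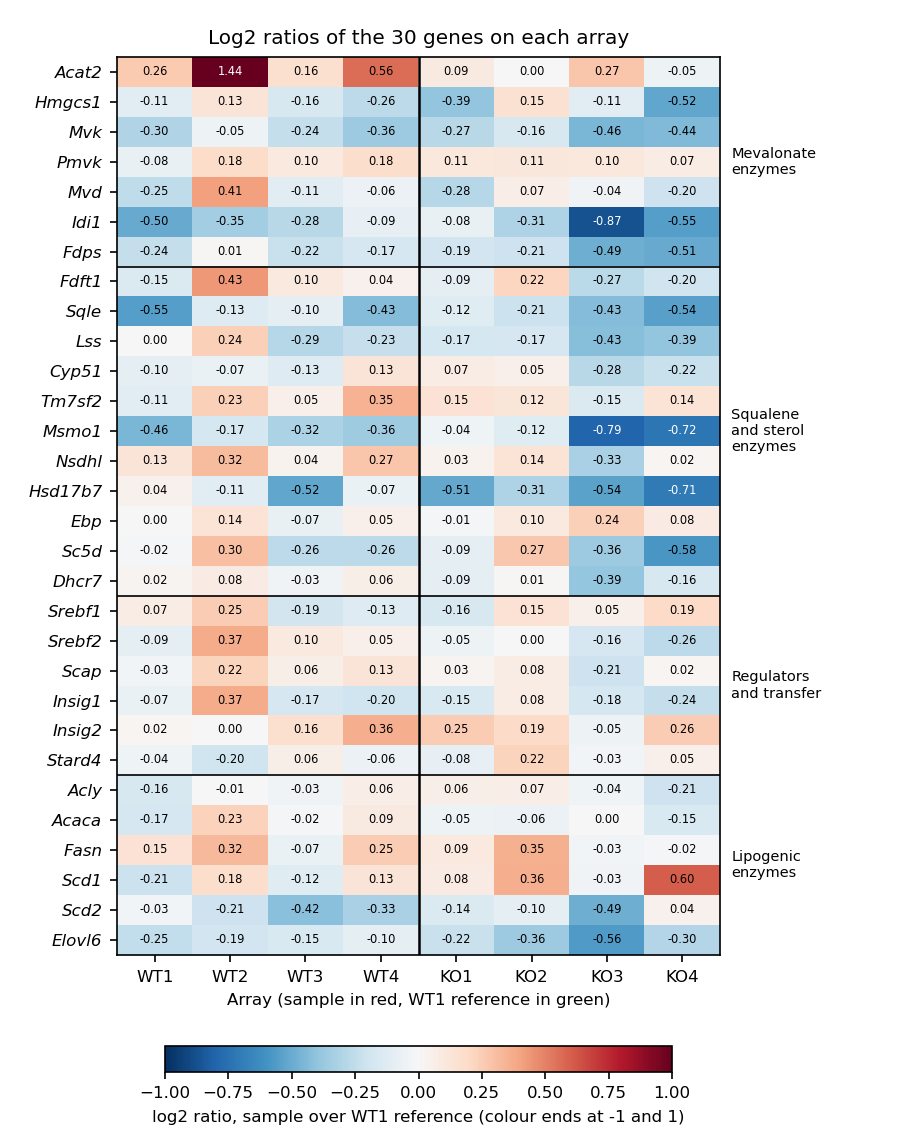
Log2 ratio of each of the 30 genes (rows, by role) on each of the 8 arrays (columns; WT left, KO right of the line); colour and printed numbers give the ratio of the sample over the WT1 reference. Of the 18 sterol rows, 15 are below 0 on KO3 and 14 on KO4, but also 14 on WT1, 13 on WT3 and 13 on KO1. Msmo1 is at -0.79 and -0.72 on KO3 and KO4, and WT2 is red in many rows. KO3 and KO4 are both below KO1 and KO2 in 13 of 18 sterol rows. The same holds in 3 of 6 regulator rows and 2 of 6 lipogenic rows.

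The promoters of the sterol enzymes were examined because many of these genes shared low values on KO3 and KO4. RefSeq promoter sequences (GRCm38.p6) matched 24 of the 30 genes, 15 of them sterol pathway enzymes, and the 250 bases before each annotated start were searched on both strands. The motif CCAAT, bound by the factor NF-Y, which is known to act beside SREBP at sterol genes, was in 14 of the 15 enzymes (93.3%). It was in 40.1% of the 11074 tested genes with a promoter and in 33.8% of all promoters. The enzyme without CCAAT was Acat2 (difference -0.53), and the 2 enzymes with differences above 0, Ebp (0.07) and Pmvk (0.00), had it. Whether the motif goes with the differences was not tested. The motif GGGCGG, bound by Sp1, was in 14 of the 15 (93.3%), against 61.9% of tested genes and 32.7% of all promoters. The SREBP motif TCACNCCAC was in 1 of the 15, Hmgcs1, against 1.27% of tested genes and 1.05% of all promoters. A gene counts where any of its promoters holds the motif, and a base may belong to more than 1 motif. Only exact matches to these strings were counted, with any base at N. A gene without a match may still hold a differing site, so the counts do not show which enzymes lack SREBP sites. A match is a description of the sequence only. The stretches below come from enzymes that were low on KO3 or KO4. They are written along the gene's strand, with CCAAT, its reverse complement ATTGG and the SREBP motif in capitals.
Hmgcs1 (chr13:119690211-119690330, + strand): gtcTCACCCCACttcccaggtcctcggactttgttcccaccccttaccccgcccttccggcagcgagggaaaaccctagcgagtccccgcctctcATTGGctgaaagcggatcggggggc
Idi1 (chr13:8885486-8885605, + strand): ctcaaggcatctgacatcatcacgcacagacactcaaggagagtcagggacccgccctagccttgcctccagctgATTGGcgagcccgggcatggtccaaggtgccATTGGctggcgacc
Lss (chr10:76531448-76531567, + strand): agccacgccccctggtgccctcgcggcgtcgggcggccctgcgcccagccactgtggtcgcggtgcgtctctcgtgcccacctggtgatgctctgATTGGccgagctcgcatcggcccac
Msmo1 (chr8:64733609-64733728, - strand): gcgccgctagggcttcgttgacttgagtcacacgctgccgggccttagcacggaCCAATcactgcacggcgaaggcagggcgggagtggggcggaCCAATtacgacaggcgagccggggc
Hsd17b7 (chr1:169969206-169969325, - strand): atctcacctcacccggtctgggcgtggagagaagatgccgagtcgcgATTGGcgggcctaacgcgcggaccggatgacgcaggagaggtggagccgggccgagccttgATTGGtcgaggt
Each stretch is 120 bases long and ends at or before the annotated start. Within the stretch printed, Hmgcs1 has the SREBP match at the far end and a CCAAT box nearer the start. In the whole searched window the CCAAT motif occurs 3 times each in Hmgcs1, Msmo1 and Hsd17b7, 2 times in Idi1 and 1 time in Lss.

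**Figure D3:**
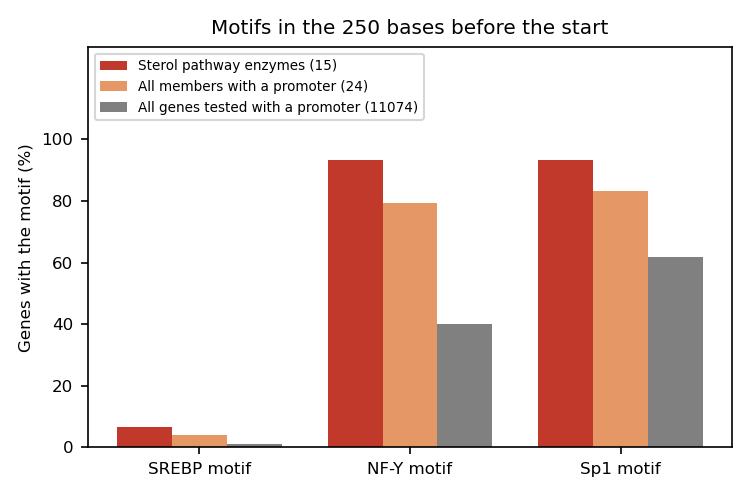
Share of genes (y axis, percent) with each motif in the 250 bases before the annotated start, for the 15 sterol pathway enzymes with a promoter sequence, all 24 such members and the 11074 tested genes with one. The NF-Y motif is in 93.3% of the sterol enzymes and 40.1% of tested genes, whereas exact matches to the SREBP motif TCACNCCAC are rare in every group.

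Among the 6 regulators 3 differences were below 0 and 3 above, with a median of -0.04. Srebf2, which encodes the SREBP that mainly drives sterol genes, had -0.09, 0.37, 0.10 and 0.05 on WT1 to WT4 and -0.05, 0.00, -0.16 and -0.26 on KO1 to KO4. KO3 and KO4 were its lowest arrays and WT2 its highest, as for the enzymes (difference -0.23 ± 0.11, SE; limma adjusted p = 0.360; -0.15 at a second probe). Insig1, itself a known SREBP target that holds SCAP back, had -0.07, 0.37, -0.17 and -0.20 in WT and -0.15, 0.08, -0.18 and -0.24 in KO. WT2 was the highest array here too, and the difference of -0.11 ± 0.13 (adjusted p = 0.775) became 0.02 without WT2. Scap had -0.03, 0.22, 0.06 and 0.13 in WT and 0.03, 0.08, -0.21 and 0.02 in KO (difference -0.11 ± 0.09, adjusted p = 0.646). KO3 alone lay below the WT arrays. Stard4, a soluble sterol carrier, had -0.04, -0.20, 0.06 and -0.06 in WT and -0.08, 0.22, -0.03 and 0.05 in KO. Its probes disagreed: the brighter gave 0.10 ± 0.09 (adjusted p = 0.701) and the other -0.25. Srebf1, the SREBP gene more tied to fatty acid synthesis, differed by 0.06, and Insig2, the paralogue of Insig1, by 0.03.

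The lipogenic enzymes had a median difference of -0.03, with 3 below 0 and 3 above. Elovl6, which lengthens palmitate, had -0.25, -0.19, -0.15 and -0.10 on WT1 to WT4 and -0.22, -0.36, -0.56 and -0.30 on KO1 to KO4. Only KO1 lay within the WT range (difference -0.19 ± 0.09, SE; limma adjusted p = 0.376). Scd1, the stearoyl-CoA desaturase of liver and fat, had -0.21, 0.18, -0.12 and 0.13 in WT and 0.08, 0.36, -0.03 and 0.60 in KO. KO4, among the lowest arrays for sterol enzymes, was the highest here, and the difference of 0.26 ± 0.14 (adjusted p = 0.435) was the largest above 0 among the 30 genes. Scd2, the related desaturase of brain and embryonic tissue, had -0.03, -0.21, -0.42 and -0.33 in WT and -0.14, -0.10, -0.49 and 0.04 in KO. KO3 and KO4 lay at opposite ends for this gene (difference 0.07 ± 0.12, adjusted p = 0.848). Acaca, acetyl-CoA carboxylase, had -0.17, 0.23, -0.02 and 0.09 in WT and -0.05, -0.06, 0.00 and -0.15 in KO (difference -0.10 ± 0.10, adjusted p = 0.714). All its KO arrays lay within the WT range. Fasn, fatty acid synthase, differed by -0.06 and Acly, citrate lyase, by 0.00.

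A second look at the same genes came from their further probes. In 9 of the 30 genes 10 further probes passed the filter, and 9 of these had the sign of the main probe, Stard4 being the exception. They ranged from -0.25 to 0.11, and none passed (lowest limma adjusted p = 0.241 with every kept probe tested).

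Other genes of the same metabolism were examined from 4 lists with 46 genes, of which 44 were tested. Of these 1 rose and 0 fell, against 1.57% and 0.544% of all genes, with a median of 0.07 and 17 differences below 0 (38.6%, against 40.7% of all genes). At an unadjusted p under 0.05 there were 12 of the 44 in limma, against 14.5% of all genes. The groups did not overlap in 4 of the 44 (Me1, Elovl7, Mid1ip1 and Abcg1, all higher in KO), a share near the 9.28% of all genes. The gene was Me1, the cytosolic malic enzyme that supplies NADPH for fatty acid synthesis. It had -0.21, -0.44, -0.13 and -0.53 on WT1 to WT4 and 0.09, 0.01, 0.19 and 0.42 on KO1 to KO4, so the groups did not overlap. The difference was 0.51 ± 0.12 (SE, 1.42-fold; limma adjusted p = 0.0457), with 0.38 and 0.25 at its other probes. The call was lost on leaving out any array but WT3 (0.43 to 0.57, adjusted p up to 0.163). Of the other regulators, Mid1ip1, which acts on acetyl-CoA carboxylase, differed by 0.30 ± 0.09 (adjusted p = 0.138) and Mlxipl, the carbohydrate-responsive factor ChREBP, by 0.31 ± 0.12 (adjusted p = 0.247). In sterol handling the lowest p values were those of Abcg1, a sterol exporter (0.33 ± 0.09, adjusted p = 0.0959), and Lipa, the lysosomal lipase (0.34 ± 0.13, adjusted p = 0.228). In the isoprenoid branch Coq2, of coenzyme Q synthesis, differed by 0.24 ± 0.09 (adjusted p = 0.222; -0.06 at a second probe). Fnta, a prenyltransferase subunit, differed by 0.16 ± 0.09 (adjusted p = 0.444).

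Marker lists of 8 genes each were read on the same arrays. Of the adipocyte markers 5 of 8 did not pass the filter, Lep being above background on no array and Adipoq on 1. Fabp4, Pparg and Lipe were above background on all 8 arrays. None of these 3 passed the test (array medians -0.09 to 0.08 in WT, -0.21 to -0.07 in KO). Of the adrenal cortex markers 4 of 8 did not pass the filter, and Cyp11a1, Cyp11b1 and Hsd3b1 were above background on no array. Cyp17a1 was above background on 8 arrays, Nr5a1 and Mc2r on 7 each and Cyp21a1 on 5. None of these 4 passed the test (array medians 0.06 to 0.17 in WT, 0.05 to 0.19 in KO). Fat and adrenal cortex lie against the kidney and handle much lipid or sterol. The proximal tubule list had medians of -0.65 to -0.05 on the WT arrays and of -0.14, -0.08, 0.58 and 0.02 on KO1 to KO4, with 0 of 8 passing. KO3, the highest array for the proximal tubule, was the lowest for the sterol enzymes, and KO4 was the next in both. On WT1 to WT4 the proximal tubule medians were -0.05, -0.33, -0.22 and -0.65. The sterol medians there were -0.10, 0.13, -0.12 and -0.06. Among the WT arrays WT1 and WT3 were thus higher for the proximal tubule and lower for the sterol enzymes than WT2 and WT4. The order was not exact, as WT4 was the lowest for the proximal tubule and WT2 the highest for the sterol enzymes. KO3 was also the highest array for the distal and collecting duct list (0.17) and the macrophage list (0.38), and the lowest for the nephron progenitor list (-0.45). The proliferation list had medians of -0.34 to -0.05 in WT and of -0.13, -0.13, -0.23 and -0.25 on KO1 to KO4, with 0 of 7 passing. The nephron progenitor list had medians of -0.08 to 0.19 in WT and -0.45 to -0.13 in KO, and 3 of 8 fell. Of the stroma list 5 of 8 rose, with medians of -0.15 to 0.02 in WT and 0.30 to 0.53 in KO. Of the macrophage list 5 of 8 rose (-0.17 to -0.02 in WT, 0.26 to 0.38 in KO), and of the endothelium and the distal and collecting duct lists 1 of 8 each. The part of these cell types in the values of the sterol enzymes was not tested.

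**Figure D4:**
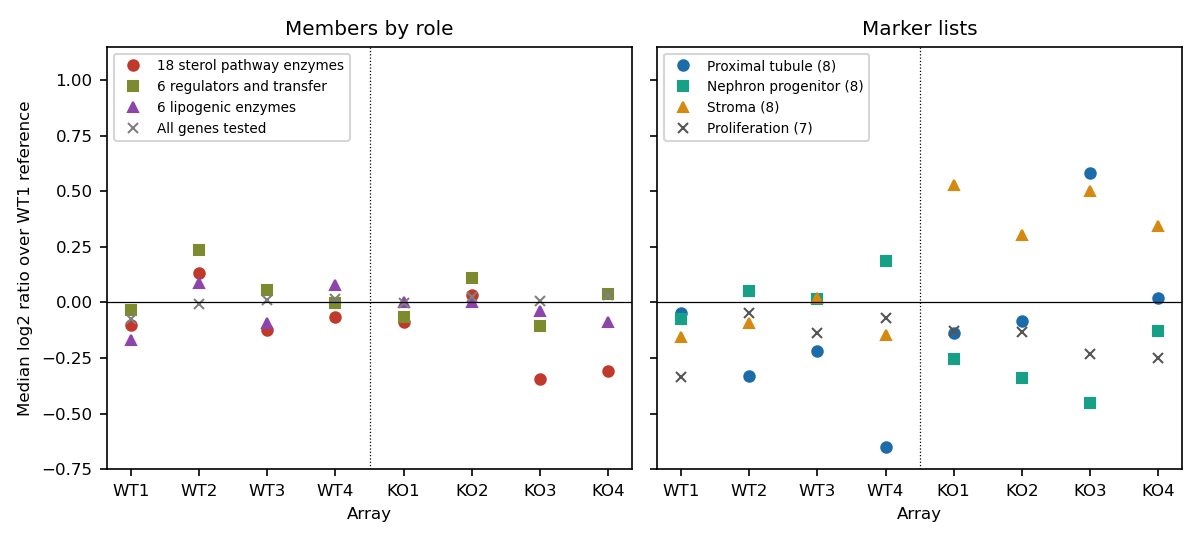
Median log2 ratio over the WT1 reference on each array (y axis) for the members by role (left) and for 4 marker lists (right, number of genes tested in brackets). The 18 sterol pathway enzymes are lowest on KO3 (-0.34) and KO4 (-0.31), and the proximal tubule markers are highest on KO3 (0.58); the regulators and lipogenic enzymes stay between -0.17 and 0.24 on all arrays.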

How the data were processed

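The authors extracted the spots with Agilent's Feature Extraction software, version 10.7.3.1, according to the submitters' processing notes; the file headers name build mm9. The deposited intensity columns taken here hold median red and green spot and local background signals, not normalized; the deposited log10 ratio is of processed red over green, and the deposited value table holds the same log10 ratios. Other deposited columns are flags. In R 4.3.3 with limma 3.58.1, signals were corrected with normexp (offset 50) and loess within arrays; control spots and the 0.372% of readings marked as outliers were left out. Probes well above background in red on at least 4 of 8 arrays were kept, symbols were matched by accession to RefSeq (GRCm38.p6), and the brightest kept probe stood for a gene. KO was compared with WT by lmFit and eBayes with Benjamini-Hochberg adjustment; the scripts were tested on simulated data. The number of arrays limits the precision. p-values measure the spread between these samples, which the design text calls biological replicates. Same-numbered WT and KO arrays shared a slide column and deviated together (correlations 0.14, 0.37, 0.26 and 0.30), so the number was also used as a block. Each was the other's best match in 1 of the 4 pairs. The members and lists were chosen with earlier results of these data known. Named were, per role, the 4 members with the smallest p, and per further list the genes that passed or else the 2 with the smallest p; Msmo1 and Sc5d were described after their values were seen. Alternatives are in the closing section.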

Additional observations from a re-analysis of the deposited data

Results flagged for a closer look

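Among the 30 genes and the 7 further named genes, 1 value stood apart from the other 3 of its group: Tm7sf2, a sterol reductase, was at -0.15 on KO3 and between 0.12 and 0.15 on the other KO arrays. About 1 in 20 such groups stands apart by chance, and 74 groups were examined.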

How the results depend on the processing

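None of the 30 genes passed in any setting but WT2 alone as control, where the Acat2 difference was -1.36. The lone control there is the array with the highest Acat2 value, and the spread comes from the KO arrays and the other WT arrays. The count over all genes was 123 with the software's ratios (73 higher, 50 lower) and with the deposited value table, 0 with median centring, 1 with the red channel alone, 134 with the red channel alone without WT1 and KO1 (added after seeing the data), 556 with the replicate block, 448 with array weights, 12 with WT2 alone and 83 to 345 with 1 array left out. At an unadjusted p under 0.05, limma gave 178 genes with median centring and 111 with red alone. The further lists had 0 genes past the threshold, against 1, in these settings except the replicate block and array weights, and in those without background subtraction, without a filter or with a strict filter on dim probes, with the mean of all kept probes and without WT1 and KO1; with 1 array left out they had 0 to 1 (Me1 without WT3, Elovl7 without KO1). The median of the 30 genes was -0.16 to -0.03 with 1 array left out, and by role -0.20 to -0.04 (mevalonate), -0.25 to -0.06 (squalene onwards), -0.07 to 0.00 (regulators) and -0.06 to 0.00 (lipogenic). With the red channel alone 10 of the 30 genes were below 0, against 22, and the median was 0.17, and 0.37 from squalene onwards and 0.24 for regulators, where the median of all genes was 0.22. There Fdps (0.0028), Idi1 (0.81), Mvk (0.21), Nsdhl (0.57), Srebf2 (0.45), Scap (0.020) and Acaca (0.96) turned direction. In the red channel without WT1 and KO1 the lipogenic median was -0.15, and Stard4 (-0.066), Coq2 (-0.067) and Fnta (-0.017) turned. Stard4 was -0.076 with the mean of probes. Insig1 was -0.172 to 0.024 with 1 array left out, above 0 without WT2. With WT2 alone the median of the 30 genes was -0.24, that of the mevalonate segment -0.34 and of regulators -0.22. In that setting 26 of the 30 genes and all 18 sterol pathway enzymes were below 0, against 44.9% of all genes. WT2 was the only WT array with high Ddx3y, so control and KO samples there all had Y-linked signal. The replicate block changed no call among the 30 genes or Me1 (Hsd17b7 adjusted p = 0.115). Causes were not tested.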
